A study of Mus musculus with 48 samples.

Results

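The VEGF and PDGF ligands are 9 genes, Vegfa, Vegfb, Vegfc, Vegfd, Pgf, Pdgfa, Pdgfb, Pdgfc and Pdgfd, which encode the secreted dimeric growth factors of blood vessels, lymphatic vessels and connective tissue. They were taken by symbol from the gene count tables, 9 of 50764 gene entries. All 9 were present in all 4 tables and passed the filter on low counts in every line.

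The study holds 48 poly-A RNA-seq libraries from primary mouse cells, in 16 groups of 3. Astrocytes came from the brains of mice heterozygous for the Gas*-BERKY3 allele, and lung fibroblasts from mice heterozygous for Gai*-BERKY3, Gaq*-BERKY3 or Ga13*-BERKY3, and the lines are called Gas, Gai, Gaq and Ga13 below. BERKY3 is a luminescent biosensor of active G protein alpha subunits that is made only once Cre recombinase has acted. Each line gave 4 groups, which received either an AAV2/1 vector with Cre under the CMV promoter or the empty vector, and then fresh medium with or without agonist for 90 min before RNA isolation. The agonist was 1 µM isoproterenol, which activates beta-adrenergic receptors, for astrocytes. It was 100 µM TRAP-6, a peptide agonist of the thrombin receptor PAR1, for fibroblasts. All cells, controls included, carried the biosensor allele and had received a virus, so the effects of Cre and of the biosensor cannot be told apart. The labels give 430000 cells per well and a 500-fold virus dilution for astrocytes, and 160000 cells and a 1000-fold dilution for fibroblasts. Cell type, agonist, line, cell number and virus dilution are tied together in the Gas cultures, so no test was made between astrocytes and fibroblasts.

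Library totals ran from 15.6 to 42.6 M counts (M, 1000000). Counts of the biosensor sequence followed the virus label in all 4 lines, with group means of 20.2 to 133 counts per 1000000 counts of the library (CPM) with Cre and 0.0401 to 0.725 CPM with empty virus. All 8 astrocyte markers were measured in the Gas cultures and their summed level was 8599 to 9437 CPM. Those cultures also held RNA of fibroblast markers (1622 to 2036 CPM, with Tcf21 at 0), and of oligodendrocyte, pericyte, neuron and microglia markers at lower sums. In the Gaq fibroblasts all 9 fibroblast markers were measured and summed to 35764 to 46064 CPM. The same list summed to 27572 to 41293 CPM in Gai and 45030 to 48161 CPM in Ga13. The 8 astrocyte markers summed to 98.6 to 148 CPM in Gaq, with Gja1 alone at 77.8 to 120 CPM and Aqp4 at 0. Microglia and macrophage markers summed to 57.3 to 76.8 CPM in Gaq, 128 to 180 in Gai and 32.2 to 44.6 in Ga13. Replicate 1 stood apart in all 4 Gai groups: chi-square per degree of freedom over genes was 9.71 to 19.3 between it and the other replicates, and 2.99 to 3.44 between replicates 2 and 3. Ligand calls in the Gai mean response and in most comparisons between fibroblast lines are therefore also given without it. Levels, receptors and other listed genes, cell type markers and correlations are given with replicate 1 included.

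VEGF ligands signal through receptor tyrosine kinases. Vegfa, the main growth and permeability factor of blood vessels, binds Flt1 and Kdr. Vegfb and Pgf (placental growth factor) bind Flt1, and Vegfc and Vegfd, the factors of lymphatic vessels, bind Flt4. PDGF ligands drive the growth and movement of mesenchymal cells: Pdgfa and Pdgfc act through Pdgfra, Pdgfd through Pdgfrb, and Pdgfb through both. Astrocytes are a known source of Vegfa and of Pdgfa, the latter a growth factor for oligodendrocyte precursors, and lung fibroblasts carry both PDGF receptors.

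RefSeq promoter sequences on GRCm38.p6, a build older than the one the counts were made on, were matched for 8 of the 9 members, with 11 start sites. Those of Vegfa, Pgf, Vegfd and Pdgfd are shown because these 4 genes differed with Cre in the Gaq fibroblasts, Vegfa and Pgf downward and Vegfd and Pdgfd upward. Each is the 250 bases before the annotated start, 5′ to 3′ on the gene's strand, and capitals mark the GC box GGGCGG in either orientation. The Vegfa and Pgf stretches are those of the first of 2 listed starts, and lie at chr17:46032378-46032627 (minus strand) and chr12:85177314-85177563 (minus strand). The Vegfd and Pdgfd stretches lie at chrX:164373272-164373521 and chr9:6168236-6168485 (both plus strand).
Vegfa: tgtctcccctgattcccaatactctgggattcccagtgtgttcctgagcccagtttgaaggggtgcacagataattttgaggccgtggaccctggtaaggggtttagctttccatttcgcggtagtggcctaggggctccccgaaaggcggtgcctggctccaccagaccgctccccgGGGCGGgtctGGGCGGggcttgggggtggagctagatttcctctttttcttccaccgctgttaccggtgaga
Pgf: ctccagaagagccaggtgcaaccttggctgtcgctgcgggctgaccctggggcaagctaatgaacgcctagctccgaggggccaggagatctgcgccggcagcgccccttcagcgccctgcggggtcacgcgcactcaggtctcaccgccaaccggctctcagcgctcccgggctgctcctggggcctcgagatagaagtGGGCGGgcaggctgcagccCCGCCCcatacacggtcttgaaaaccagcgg
Vegfd: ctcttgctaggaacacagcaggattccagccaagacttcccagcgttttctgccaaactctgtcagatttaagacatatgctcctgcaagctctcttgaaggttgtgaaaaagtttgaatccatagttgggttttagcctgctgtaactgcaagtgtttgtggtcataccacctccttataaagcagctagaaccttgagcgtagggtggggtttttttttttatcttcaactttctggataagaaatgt
Pdgfd: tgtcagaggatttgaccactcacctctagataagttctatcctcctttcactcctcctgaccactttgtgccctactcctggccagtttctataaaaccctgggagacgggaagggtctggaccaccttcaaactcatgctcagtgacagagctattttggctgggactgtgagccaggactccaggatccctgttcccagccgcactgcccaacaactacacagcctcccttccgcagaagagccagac
The Vegfa stretch holds 2 GC boxes, the nearer beginning 62 bases before the start, and the Pgf stretch holds 2, beginning 50 and 31 bases before it. The Vegfd and Pdgfd stretches hold none. The windows of the second starts hold 1 GC box for Vegfa and none for Pgf. A GC box is present in 32.7% of the 32851 promoter windows of the same length in the table. The bases of the stretches were 59.2% G or C in Vegfa, 68.4% in Pgf, 42.4% in Vegfd and 53.6% in Pdgfd.

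The promoters of other members are described by their matches. Vegfb had 4 GC boxes, Vegfc 2, and the Pdgfa starts had 1 and 2. The Pdgfc window had no GC box but 1 CArG box, the motif of serum response factor, 17 bases before the start, a motif found in 1.47% of all windows. Neither the full cyclic AMP response element TGACGTCA (1.55% of windows) nor the AP-1 motif TGACTCA (4.46% of windows) was found in any of the 11 windows. The shorter form of the cyclic AMP element, TGACG, found in 17.8% of windows, occurred in 2, those of the second starts of Vegfa and Pdgfa. The hypoxia response core ACGTG, found in 16.6% of windows, occurred in 1, that of the second Vegfa start. Its variant GCGTG, found in 28.2% of windows, occurred in 4, those of Vegfb, the first Pgf start and the second starts of Vegfa and Pdgfa. In the second Vegfa window the ACGTG and TGACG matches share bases, beginning 211 and 209 bases before the start. All motifs were sought on both strands. A match is a run of letters and not a measured binding site.

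Levels of different genes were compared per length, as CPM per 1000 bases of merged exon (CPM per kb). In resting fibroblasts with empty virus Vegfa was the highest ligand in each line, at 251 ± 2.62 (Gai), 219 ± 2.63 (Gaq) and 209 ± 6.46 (Ga13) CPM per kb (SD, n = 3). Across all 12 fibroblast groups it made up 61.4% to 71.7% of the summed level of the 9 ligands. Pdgfb was the lowest in all 12, at 0.797 to 1.53 CPM per kb.

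**Figure D1:**
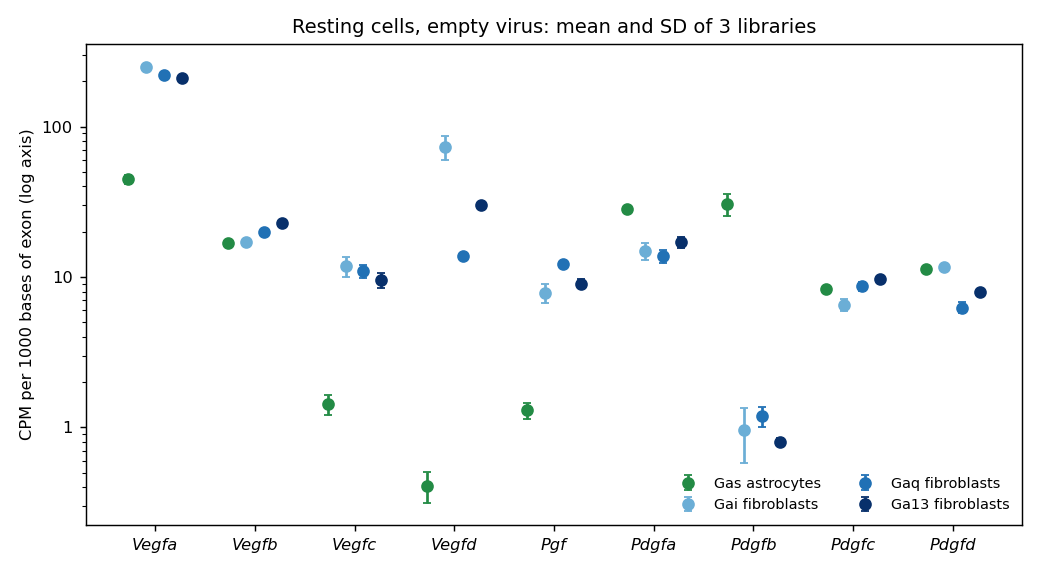
Level per 1000 bases of exon (CPM, log axis) of the 9 ligands in resting cells with empty virus, as mean and SD of 3 libraries for each line. Vegfa was highest in all 4 lines, Pdgfb ranged from 30.5 in Gas astrocytes to 0.797 in Ga13 fibroblasts, and Vegfd was lowest in the astrocytes, at 0.411.

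The ligand below Vegfa differed between the fibroblast lines. Vegfd stood second in Gai, at 73.0 ± 13.4 CPM per kb, and in Ga13, at 30.2 ± 0.559. In Gaq it was 13.7 ± 0.575, close to Pdgfa at 13.8 ± 1.31, from which it did not differ beyond the spread, and Vegfb stood second at 19.9 ± 0.813. Vegfb, Pdgfa, Vegfc, Pgf, Pdgfc and Pdgfd lay between 6.25 and 23.0 CPM per kb in resting cells with empty virus of the 3 lines, and many neighbours among them were within 1 SD of each other. In Ga13, for example, Pdgfc at 9.67 ± 0.38, Vegfc at 9.54 ± 1.08 and Pgf at 9.01 ± 0.618 CPM per kb did not separate.

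Resting astrocytes had another order. Vegfa was again first, at 44.6 ± 2.89 CPM per kb, followed by Pdgfb at 30.5 ± 5.03 and Pdgfa at 28.2 ± 0.464, which did not differ beyond their spread. Vegfb (16.8 ± 0.699), Pdgfd (11.3 ± 0.305) and Pdgfc (8.35 ± 0.307) came next, each more than 1 SD from its neighbour. Vegfc, Pgf and Vegfd were low, at 1.43 ± 0.21, 1.30 ± 0.152 and 0.411 ± 0.0966 CPM per kb, and the first 2 of these did not separate. Vegfd rested on 12 to 44 reads per library in astrocytes.

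Level was not compared by a test between cell types, but the ranges over libraries show where they overlap. Vegfa was 91.7 to 205 CPM in the 12 astrocyte libraries and 694 to 1137 CPM in the 36 fibroblast libraries. Vegfc, Vegfd and Pgf were also lower in every astrocyte library than in any fibroblast library: Vegfd was at most 1.38 CPM in astrocytes and at least 26.7 CPM in fibroblasts. The reverse held for Pdgfb, at 24.9 to 143 CPM in astrocytes and 2.22 to 7.18 CPM in fibroblasts, and for Pdgfa, at 65.3 to 98.4 and 35.5 to 58.2 CPM. The ranges of Vegfb, Pdgfc and Pdgfd overlapped. How many of all genes have separate ranges was not counted, so the separation cannot be read as particular to these ligands.

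**Figure D2:**
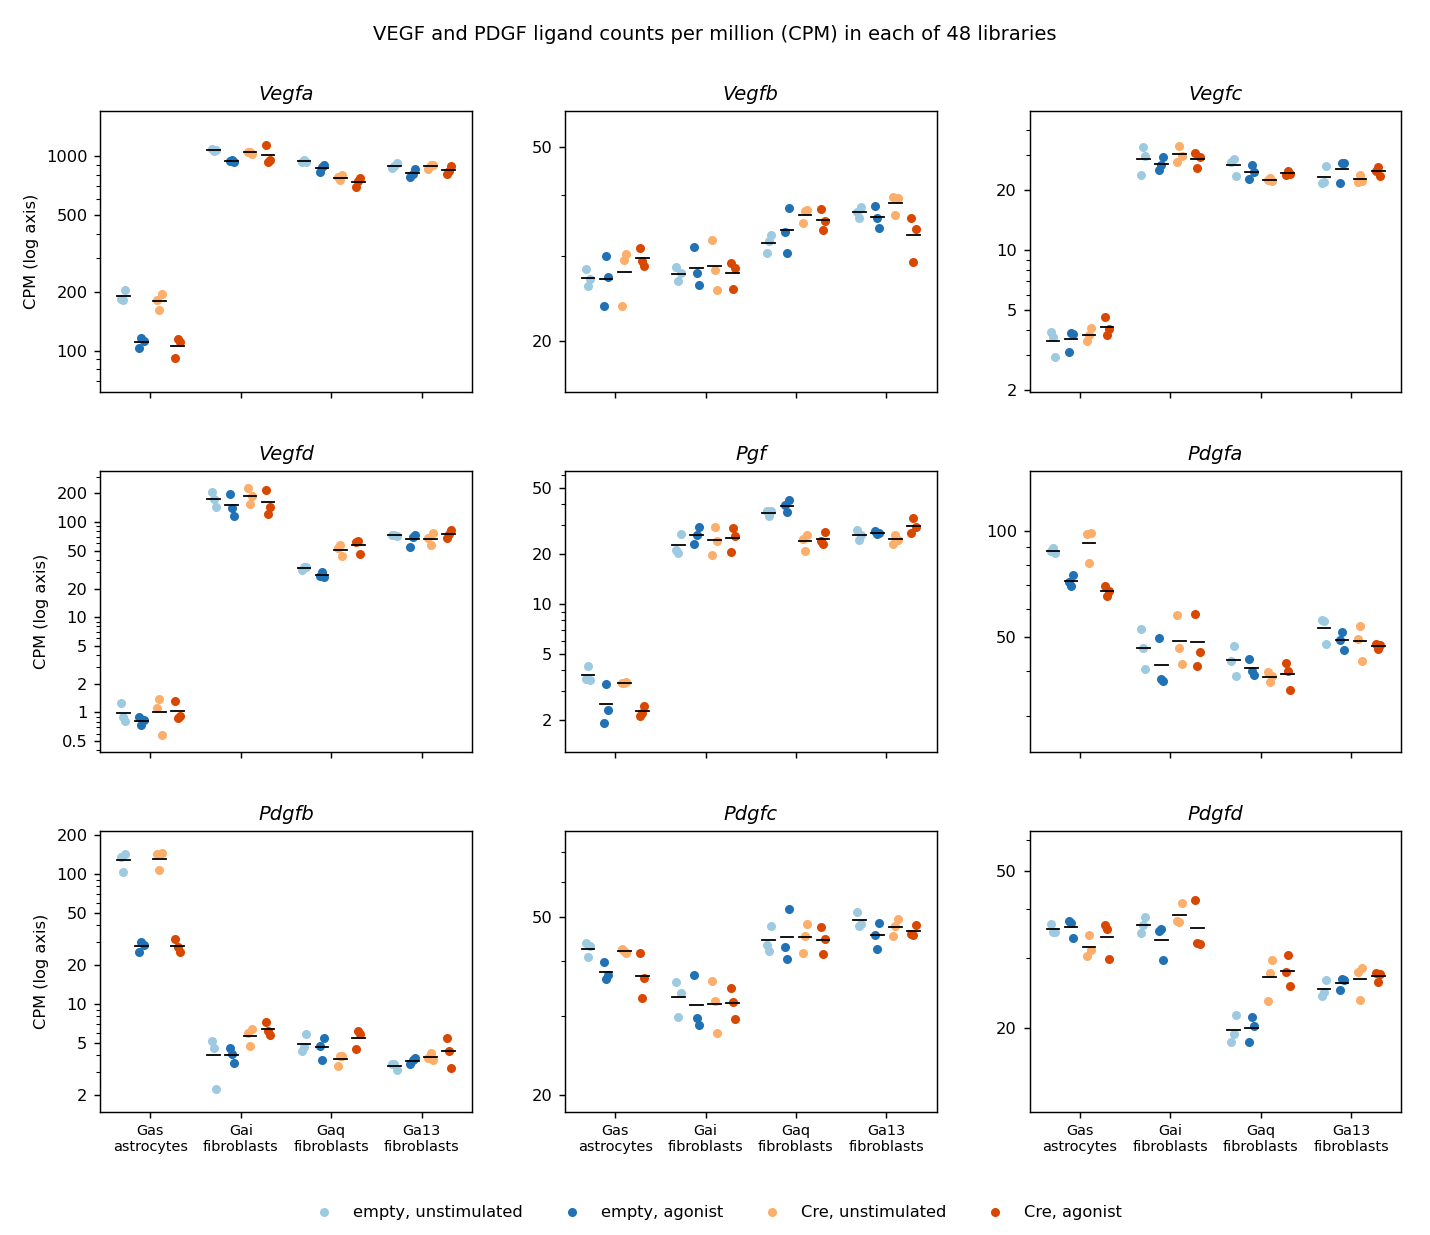
CPM of each ligand (log axis) in each of the 48 libraries, 3 points per group with the group mean as a bar, for empty and Cre virus with and without agonist in the 4 lines. In Gas astrocytes Pdgfb and Vegfa libraries with agonist lie below all those without, and in Gaq fibroblasts Vegfd and Pdgfd are higher and Vegfa and Pgf lower with Cre.

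With isoproterenol 4 of the 9 ligands fell in astrocytes in the mean of both viruses: Pdgfb, Vegfa, Pgf and Pdgfa. The other 5 were not called. Calls are those of edgeR's quasi-likelihood test with a p, adjusted by Benjamini-Hochberg over all genes of the line, under 0.05, and 23.3% of the 18103 genes tested were called in this comparison, 11.5% as falling. The median log2 change of the 9 ligands was -0.13, against -0.00369 over all genes. A fall of an RNA in a mixed culture can be fewer cells of a type or less RNA per cell, which bulk samples cannot tell apart. The labels give replicate numbers but not separate animals or cultures, so p-values measure the spread between these libraries, which may be technical.

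Pdgfb, the ligand of both PDGF receptors, was 134, 103 and 143 CPM in the 3 resting libraries with empty virus and 25.02, 29.8 and 28.1 CPM with isoproterenol. With Cre it was 141, 107 and 143 CPM at rest and 31.6, 27.4 and 24.9 CPM with agonist. Every stimulated library was below every resting one, with a gap from 31.6 to 103 CPM. The log2 change was -2.16 ± 0.12 (SE), so that Pdgfb fell by 77.6% (edgeR adjusted p = 4.23e-07). Per kb, Pdgfb went from rank 2 among the ligands to rank 6, at 6.64 ± 0.579 CPM per kb with empty virus.

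Vegfa was 185, 183 and 205 CPM at rest with empty virus and 104, 116 and 113 CPM with isoproterenol. With Cre it was 182, 163 and 196 CPM at rest and 91.7, 115 and 110.1 CPM with agonist. The stimulated and resting libraries did not overlap. Its log2 change was -0.73 ± 0.06, so that it fell by 39.5% (edgeR adjusted p = 1.53e-08), and it kept rank 1 per kb among the ligands, now at 25.9 ± 1.53 with Pdgfa next at 23.2 ± 0.861.

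Pdgfa, the ligand of Pdgfra, was 87.9, 89.3 and 86.4 CPM at rest with empty virus and 71.8, 69.8 and 75.1 CPM with isoproterenol. With Cre it was 98.2, 81.1 and 98.4 CPM at rest and 69.8, 65.3 and 67.7 CPM with agonist. Again no stimulated library reached a resting one. The log2 change was -0.32 ± 0.05 (edgeR adjusted p = 1.28e-06). With empty virus alone the change was -0.22 (adjusted p = 0.016), and it was not called there when any 1 of 4 libraries was left out (resting replicates 1 and 2, and stimulated replicates 1 and 2; adjusted p up to 0.105). Pdgfa overlaps the gene 6330403L08Rik, and since the strand setting of the counting is not given in the sources used here, its counts may include reads of that gene.

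Pgf was low in these cells, at 3.53, 4.27 and 3.49 CPM at rest with empty virus and 1.94, 3.29 and 2.31 CPM with isoproterenol. With Cre it was 3.37, 3.36 and 3.41 CPM at rest and 2.13, 2.22 and 2.44 CPM with agonist. These levels rest on 37 to 118 reads per library. Stimulated libraries all lay below the resting ones, by a log2 change of -0.54 ± 0.16 (edgeR adjusted p = 0.00994). Within a single virus the change had the same size but was not called (adjusted p = 0.11 with empty virus and 0.113 with Cre).

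The other 5 ligands were not called in the isoproterenol response. Pdgfc, a latent ligand of Pdgfra that proteases activate, was 40.7 to 43.7 CPM in the 6 resting libraries and 33.0 to 41.5 CPM in the stimulated ones, which overlapped, and its log2 change was -0.13 ± 0.05 (edgeR adjusted p = 0.0771). It passed when libraries were scaled by their totals alone (adjusted p = 0.0106). Pdgfc overlaps the gene Gm16000, with the same uncertainty as for Pdgfa. Vegfb (0.09 ± 0.06), Vegfc (0.13 ± 0.14), Vegfd (-0.07 ± 0.29) and Pdgfd (0.10 ± 0.06) had small log2 changes with overlapping libraries.

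Vegfa, Pdgfa and Pdgfb were called with empty virus (background 14.7% of genes) and with Cre (14.3%). The difference of the 2 responses was called for 0 of the 9 ligands in edgeR (0 also at an unadjusted p under 0.05, where 3.49% of all genes passed, and 0 in DESeq2) and for 0% of all genes. For Pdgfb it was -0.04 ± 0.23 and for Vegfa 0.01 ± 0.12.

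**Figure D3:**
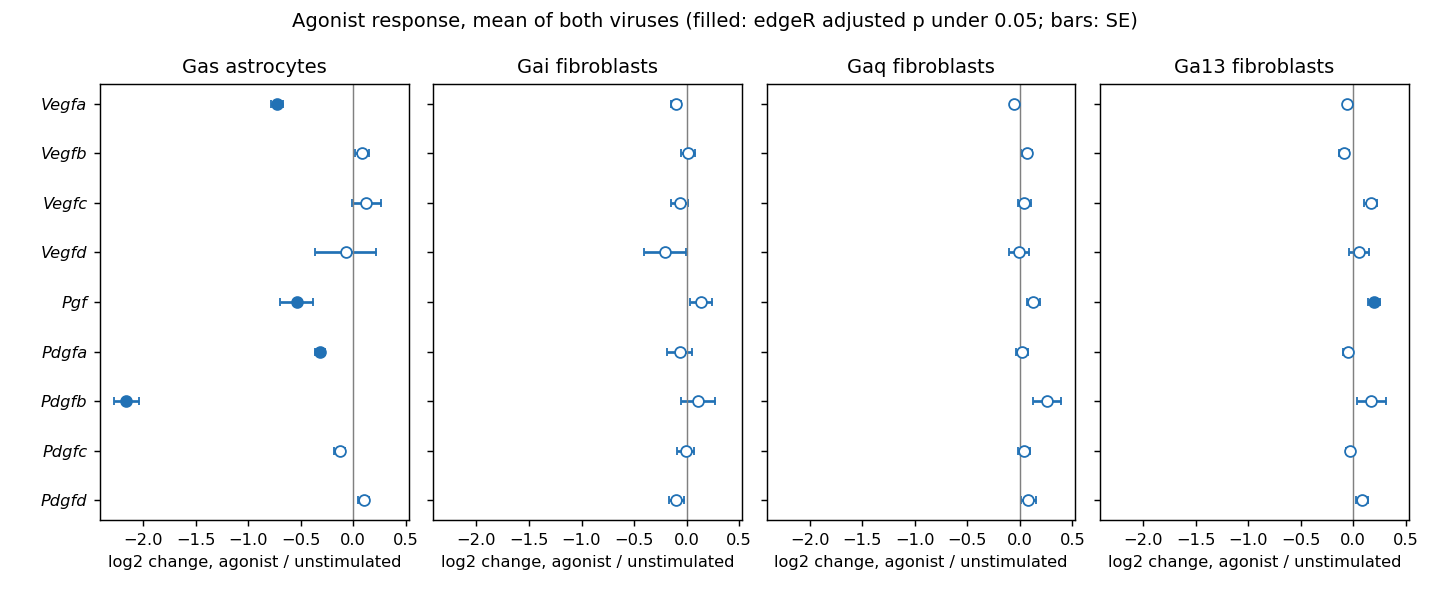
Log2 change with agonist against unstimulated cells, mean of both viruses, with its SE, for the 9 ligands (rows) in the 4 lines (panels). Filled points have an edgeR adjusted p under 0.05: Pdgfb at -2.16, Vegfa at -0.73, Pgf at -0.54 and Pdgfa at -0.32 in Gas astrocytes, and Pgf at 0.20 in Ga13 fibroblasts.

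Receptors in the same astrocytes, where 23.3% of all genes were called, were followed from a list of 8 genes. Pdgfrb, the receptor of Pdgfb and Pdgfd, was 70.2 ± 8.11 CPM at rest with empty virus and 35.6 ± 1.68 CPM with isoproterenol (SD, n = 3), and fell by 0.93 ± 0.06 on the log2 scale in the mean response (edgeR adjusted p = 1.1e-13). Pdgfra, the receptor of Pdgfa, rose by 0.12 ± 0.04 (adjusted p = 0.0171), from 105 ± 5.06 to 113 ± 2.78 CPM with empty virus. With Cre alone 0 of the 8 receptors were called as rising. Over both viruses the Pdgfra libraries overlapped, at 98.8 to 142 CPM at rest and 110 to 146 CPM with agonist. The other 6, Flt1, Kdr, Flt4, Nrp1, Nrp2 and Pdgfrl, did not pass the test. Of the 8 pericyte and smooth muscle markers, 1 was called up with agonist, the smooth muscle gene Cnn1 (274 to 282 CPM at rest, 470.3 to 558 CPM with agonist), and 2 down, Cspg4 (-0.27 ± 0.05) and Myh11 (-0.69 ± 0.16). The sum of the 8 went from 503 to 536 CPM at rest to 685 to 787 CPM, most of it Cnn1. Single markers of other types were called as well: 3 astrocyte, 3 oligodendrocyte lineage, 2 neuron and 2 fibroblast markers up, and 2 microglia markers up and 1 down. The summed levels of these 5 lists overlapped between resting and stimulated libraries. Also up were 1 platelet marker, Itga2b (0.40 ± 0.09), and 1 lung epithelium marker, Nkx2-1 (0.52 ± 0.11). The platelet markers summed to 14.6 to 17.9 CPM at rest and 18.1 to 21.8 CPM with agonist. The lung epithelium sums overlapped, at 4.99 to 7.30 and 6.87 to 9.95 CPM. The part of any of these in the ligand and receptor values was not tested.

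Proteases that activate the latent ligands, binders and hypoxia genes, Vegfa being a well-known hypoxia target, went both ways in astrocytes. Beside the counts below, 23.3% of all genes were called in this comparison, 11.5% as falling. Of 12 proteolytic activators 2 rose and 2 fell, among them Plat (tissue plasminogen activator, an activator of Pdgfc) at 0.20 ± 0.04 and Plau (urokinase, an activator of Pdgfd) at -0.48 ± 0.08. Of 8 extracellular binders 2 rose and 2 fell, with Thbs1 (thrombospondin, which inhibits vessel growth) at 1.08 ± 0.05. Of 16 hypoxia targets 3 rose and 5 fell. Ndrg1 rose by 1.72 ± 0.05 and the glucose transporter gene Slc2a1 by 0.73 ± 0.04, while Ddit4 fell by 0.65 ± 0.06 and the glycolytic regulator gene Pfkfb3 by 0.56 ± 0.04. Of 8 measured hypoxia regulators 3 rose, Egln3, Egln2 and Epas1. Of 12 adaptors of receptor signalling 3 rose and 4 fell, with Pik3r1, a regulatory subunit of PI3 kinase, at -0.81 ± 0.04. The median log2 change was 0.06 over the receptors, 0.03 over the activators, 0.04 over the hypoxia regulators and -0.04 over the hypoxia targets.

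With TRAP-6 in fibroblasts few ligands were called, as was the case for genes at large. In the mean of both viruses 0 of 9 were called in Gai (1.12% of all genes called), 0 of 9 in Gaq (5.61%) and 1 of 9 in Ga13 (8.38%). At an unadjusted p under 0.05 these numbers were 1, 1 and 3, beside 9.66%, 15.9% and 19.3% of all genes, and DESeq2 called 0, 0 and 1. The median log2 change of the ligands was -0.07 in Gai, 0.04 in Gaq and 0.06 in Ga13, against medians of -0.00171, -0.00624 and -0.00163 over all genes.

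Pgf was the ligand called in Ga13. It was 27.96, 24.4 and 26.1 CPM at rest with empty virus and 27.5, 26.6 and 26.9 CPM with TRAP-6. With Cre it was 23.2, 26.3 and 24.3 CPM at rest and 26.7, 33.2 and 29.2 CPM with TRAP-6. The groups overlapped with empty virus and did not with Cre. The mean log2 change was 0.20 ± 0.06 (edgeR adjusted p = 0.0242). With Cre it was 0.31 ± 0.08 (adjusted p = 0.0115; 5.37% of genes called), and with empty virus 0.08 ± 0.08 (adjusted p = 0.774; 3.9% of genes called). The difference between viruses was not called (0.23 ± 0.12, adjusted p = 0.658).

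That mean change is close to the threshold. With libraries scaled by their totals alone it was 0.16 (adjusted p = 0.0753), and the call was lost without resting empty-virus replicate 2, resting Cre replicate 1, stimulated empty-virus replicate 1 or stimulated Cre replicate 2 (adjusted p up to 0.11). The call with Cre alone was lost without the same 2 Cre libraries (adjusted p up to 0.156). In the other fibroblast lines the same gene changed by 0.14 ± 0.11 (Gai) and 0.13 ± 0.06 (Gaq), neither called.

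Vegfa was slightly lower with TRAP-6 in each line without passing the test, at log2 changes of -0.10 ± 0.05 in Gai, -0.05 ± 0.03 in Gaq and -0.06 ± 0.03 in Ga13 (adjusted p = 0.495, 0.411 and 0.177). With empty virus in Gai it was 1085, 1063 and 1075 CPM at rest and 948, 958 and 929.6 CPM with TRAP-6. That change was not called but had an unadjusted p under 0.05 in edgeR's test, as had 6.17% of all genes. With Cre in Gai the stimulated replicate 1, at 1137 CPM, was above all resting libraries, and the other 2 were below. Without replicate 1 in the Gai groups, an alternative added after its distance was seen, 2 of 9 ligands were called as falling in the Gai mean response (4.39% of all genes called): Vegfa at -0.15 ± 0.03 (adjusted p = 0.000732) and Pdgfd at -0.23 ± 0.06 (0.0308).

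Pdgfb in Gaq with Cre was 3.33, 3.96 and 3.99 CPM at rest and 4.48, 6.13 and 5.83 CPM with TRAP-6 (0.59 ± 0.19, adjusted p = 0.0898). With empty virus it was 4.35, 4.64 and 5.81 CPM and then 4.71, 3.66 and 5.49 CPM, which overlapped. These are 67 to 147 reads per library, and the difference between the viruses was not called (0.66 ± 0.27, adjusted p = 0.653).

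No difference in the TRAP-6 response between fibroblast lines was called for any ligand. In a joint fit of the 36 fibroblast libraries (16749 genes) 0 of 9 passed in Gaq against Gai (0.137% of all genes), Ga13 against Gai (0.316%) and Ga13 against Gaq (0%). At an unadjusted p under 0.05 the counts were 0, 1 and 0, the 1 being Vegfc, beside 5.51%, 7.73% and 5.08% of all genes, and DESeq2 called 0 in each. Without the Gai replicate 1 libraries the edgeR counts were again 0.

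Of the 8 receptors and co-receptors 0 were called with TRAP-6 in Gai, 2 in Gaq, both down, and 3 in Ga13, 1 up and 2 down. The shares of all genes called were 1.12%, 5.61% and 8.38%. Pdgfra was 359 ± 5.79 CPM at rest and 312 ± 1.25 CPM with TRAP-6 in Gaq with empty virus, and fell in the mean response by 0.14 ± 0.03 there (edgeR adjusted p = 0.00572) and by 0.18 ± 0.03 in Ga13 (9.16e-05). Kdr, the main signalling receptor of Vegfa, was low in fibroblasts, at 5.80 ± 0.881 CPM in Gaq and 2.97 ± 0.117 CPM in Ga13 at rest. It fell by 0.53 ± 0.15 in Gaq (adjusted p = 0.0234) and by 0.51 ± 0.16 in Ga13 (0.0385). Nrp1, the neuropilin co-receptor, rose in Ga13 by 0.22 ± 0.03 (adjusted p = 8.47e-07). Pdgfrb was the most abundant receptor per length in resting fibroblasts with empty virus, at 113, 129.6 and 160.4 CPM per kb in Gai, Gaq and Ga13, against 36.2, 35.8 and 36.1 for Pdgfra.

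The counts of the other lists stand beside 1.12% (Gai), 5.61% (Gaq) and 8.38% (Ga13) of all genes called with TRAP-6. Of the 12 proteolytic activators 1 rose and none fell in each line, and of the 8 measured hypoxia regulators 1 fell and none rose. In Gai, Gaq and Ga13 the 16 hypoxia targets gave 1, 1 and 2 rises and 0, 1 and 3 falls, the 8 binders 0, 2 and 2 rises and 1, 0 and 1 falls, and the 12 adaptors 0, 1 and 0 rises and 1, 1 and 2 falls. Medians of the lists lay between -0.07 and 0.04. A few genes were called in all 3 lines. Plau, the urokinase gene, rose by 0.45 ± 0.08 in Gai, 0.62 ± 0.06 in Gaq and 1.04 ± 0.14 in Ga13. Vhl, whose product marks hypoxia factors for destruction, fell by 0.28, 0.32 and 0.32, and Pik3r1 by 0.26, 0.26 and 0.36. The hypoxia target Car9, a carbonic anhydrase gene, rose by 0.82, 0.65 and 0.48. Thbs1 and Ccn2, which encode extracellular proteins that bind VEGF, rose in Gaq (0.17 and 0.18) and Ga13 (0.13 and 0.21).

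With Cre against empty virus 4 of the 9 ligands changed in Gaq fibroblasts and 0 of 9 in each of the other lines. In Gaq, Vegfa and Pgf were lower and Vegfd and Pdgfd higher with Cre, both at rest (2.65% of all genes called) and with TRAP-6 (3.41%). In the mean of both states, a comparison added after these values were seen, the same 4 were called (6.5% of all genes). The shares of all genes called in that mean were 0.0552% in Gas, 0.00626% in Gai and 0.0568% in Ga13. At an unadjusted p under 0.05 the ligand counts there were 0 in Gas, 1 in Gai, 5 in Gaq and 0 in Ga13, beside 6.89%, 2.87%, 16.5% and 5.1% of all genes, and DESeq2 called 0, 0, 4 and 0. With the states taken apart the ligand counts in these 3 lines were again 0, beside 0.00552% and 0.0166% of all genes called in Gas, 0% and 0% in Gai, and 0.00632% and 0.0379% in Ga13, at rest and with agonist.

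Pgf, the Flt1 ligand, was 36.3, 34.0 and 36.4 CPM with empty virus and 24.9, 21.0 and 26.0 CPM with Cre in resting Gaq cells. With TRAP-6 it was 39.6, 35.7 and 42.4 CPM with empty virus and 23.9, 23.2 and 27.3 CPM with Cre. All 6 Cre libraries were below all 6 with empty virus. The log2 change with Cre was -0.56 ± 0.08 at rest (edgeR adjusted p = 4.75e-05) and -0.66 ± 0.08 with TRAP-6 (3.13e-06), and -0.61 ± 0.06 in the mean (6.12e-09), where Pgf fell by 34.5%.

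Vegfa was 938, 951 and 929 CPM with empty virus and 777.4, 756.2 and 796.6 CPM with Cre at rest. With TRAP-6 it was 833, 884 and 898 CPM with empty virus and 694, 746 and 773 CPM with Cre. Again the 6 Cre libraries lay below the 6 with empty virus. The log2 change was -0.27 ± 0.04 at rest (edgeR adjusted p = 7.36e-05), -0.23 ± 0.04 with TRAP-6 (0.000394) and -0.25 ± 0.03 in the mean (2.11e-07), where Vegfa fell by 16.01%.

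Vegfd, the Flt4 ligand, was 31.4, 33.8 and 33.8 CPM with empty virus and 53.2, 57.6 and 43.7 CPM with Cre at rest. With TRAP-6 it was 26.9, 29.8 and 26.7 CPM with empty virus and 62.3, 63.9 and 45.8 CPM with Cre. The Cre libraries were all above the others, with replicate 3 the lowest of the 3 in both states. The log2 change was 0.65 ± 0.13 at rest (edgeR adjusted p = 0.0244), 1.06 ± 0.14 with TRAP-6 (0.000935) and 0.85 ± 0.10 in the mean (0.000153). The call at rest was lost in 6 of 12 fits that left out 1 library: resting empty-virus replicates 1, 2 and 3, resting Cre replicates 1 and 2, and stimulated empty-virus replicate 1 (adjusted p up to 0.113). Those with TRAP-6 and in the mean were kept in all 12.

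Pdgfd, the latent ligand of Pdgfrb, was 18.3, 19.3 and 21.6 CPM with empty virus and 23.4, 27.6 and 29.7 CPM with Cre at rest. With TRAP-6 it was 18.4, 21.3 and 20.2 CPM with empty virus and 27.7, 30.5 and 25.6 CPM with Cre. No library with Cre was as low as one with empty virus. The log2 change was 0.44 ± 0.10 at rest (edgeR adjusted p = 0.00628), 0.49 ± 0.10 with TRAP-6 (0.00164) and 0.47 ± 0.07 in the mean (1.4e-05). Without resting empty-virus replicate 1 or resting Cre replicate 3 the call at rest was lost (adjusted p up to 0.067).

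**Figure D4:**
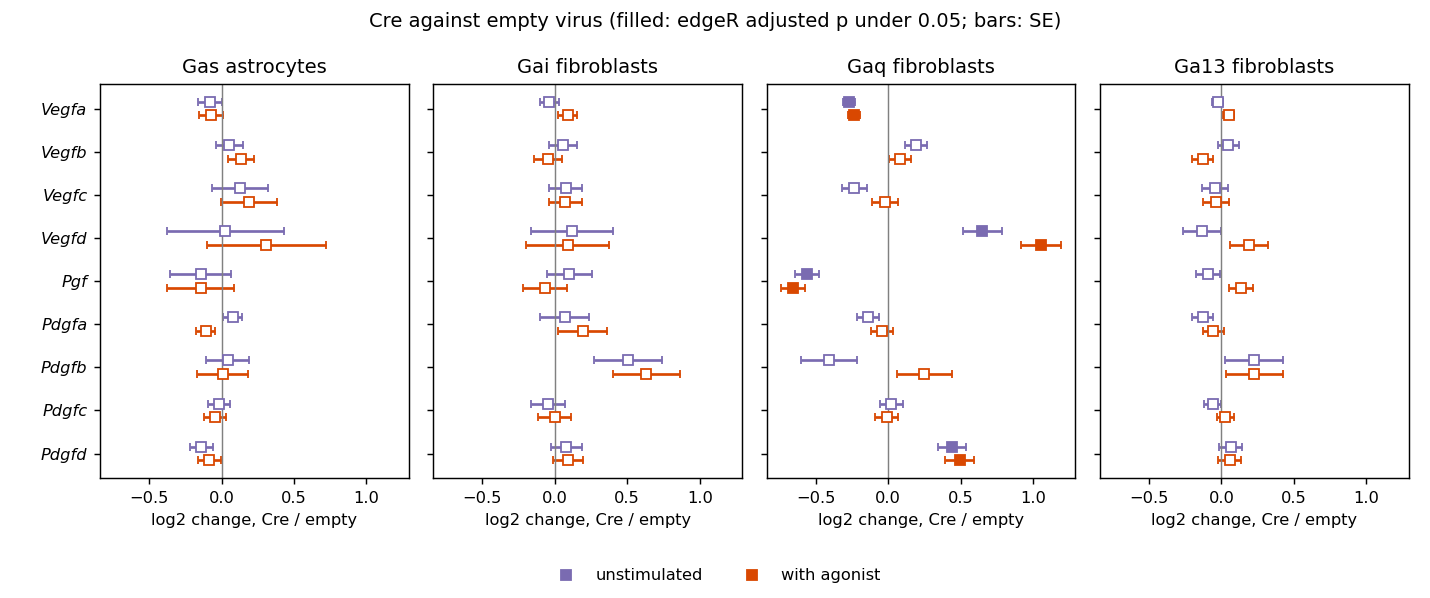
Log2 change of Cre against empty virus with its SE for the 9 ligands (rows) in the 4 lines (panels), in unstimulated cells and with agonist. Filled squares have an edgeR adjusted p under 0.05 and occur in the Gaq panel alone, for Vegfa, Vegfd, Pgf and Pdgfd, in both states.

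The remaining Gaq ligands were not called. At rest the changes were 0.19 ± 0.07 for Vegfb, -0.23 ± 0.09 for Vegfc and -0.41 ± 0.19 for Pdgfb (edgeR adjusted p = 0.215, 0.205 and 0.371). Each had an unadjusted p under 0.05, as had 12.3% of all genes. With TRAP-6 the groups overlapped, and Pdgfb was at 0.25 ± 0.19 (0.639). Pdgfa and Pdgfc had changes of -0.14 to 0.02 in the 2 states with overlapping groups. No difference in the Cre effect between the states was called: 0 of 9 passed (0.161% of all genes), 1 at an unadjusted p under 0.05, Pdgfb (6.84% of all genes), and 0 in DESeq2. For Vegfd it passed without a low-count filter and in 1 of 12 fits that left out 1 library (edgeR adjusted p = 0.0371).

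Cell type markers moved with Cre in the Gaq line too, where 6.5% of all genes were called in the mean of both states. The summed level of the 9 fibroblast markers was 35764 to 38637 CPM with empty virus and 41120 to 46064 CPM with Cre over both states, and 6 of the 9 were called up. The 6 mesothelium markers summed to 363 to 469 CPM with empty virus and 466 to 561 CPM with Cre, with 2 called up. The 8 pericyte and smooth muscle markers summed to 451 to 542 CPM with empty virus and 422 to 470 CPM with Cre, with 2 up and 1 down. Of the 8 astrocyte markers 2 were up, Aldh1l1 and Gja1. The oligodendrocyte lineage list had 1 up, Pdgfra, which is also a fibroblast marker. The 8 endothelium markers summed to 11.1 to 12.7 CPM with empty virus and 11.8 to 15.4 CPM with Cre, and none was called. The part of these shifts in the ligand values was not tested.

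In the other lines the same ligands had smaller changes. In Gai, with Vegfd at 208, 177 and 143 CPM with empty virus and 231, 153 and 187 CPM with Cre at rest, libraries of the same group differed by more than the groups did (0.10 ± 0.20 in the mean). Pdgfb in Gai was 5.20, 4.58 and 2.22 CPM with empty virus and 5.91, 4.77 and 6.37 CPM with Cre at rest, and 4.59, 4.09 and 3.47 against 7.18, 6.15 and 5.75 CPM with TRAP-6. Its mean change of 0.57 ± 0.16 had an unadjusted p of 0.00309 and an adjusted p of 1 in edgeR's test, and without replicate 1 it was 0.68 ± 0.17 (adjusted p = 0.137). In Ga13 and Gas all mean Cre effects on ligands were between -0.14 and 0.23.

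The difference between lines in the Cre effect was tested in the joint fit, also added after the Gaq values were seen. Gaq differed from Gai for 3 of 9 ligands (0.585% of all genes) and Ga13 from Gaq for 3 of 9 (0.609%), and the 3 were Vegfa, Pgf and Pdgfd in both. The comparisons share the Gaq libraries. Between Ga13 and Gai no ligand was called (0%, with 0 also at an unadjusted p under 0.05, where 2.99% of all genes passed, and 0 in DESeq2). For Pgf the log2 difference was -0.62 ± 0.11 for Gaq minus Gai (edgeR adjusted p = 0.00324) and 0.63 ± 0.11 for Ga13 minus Gaq (0.00195), and for Vegfa it was -0.27 ± 0.05 (0.00315) and 0.26 ± 0.05 (0.00446).

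Pdgfd and Vegfd were less firm. For Pdgfd the difference was 0.39 ± 0.10 for Gaq minus Gai (edgeR adjusted p = 0.0496) and -0.41 ± 0.10 for Ga13 minus Gaq (0.0307). The first was lost in 26 and the second in 12 of 36 fits that left out 1 library, spread over all 3 lines in the first and over Gaq and Ga13 in the second, with adjusted p up to 0.131 and 0.0988. For Vegfd the differences were 0.76 ± 0.22 (adjusted p = 0.145) and -0.83 ± 0.22 (0.0915), not called in edgeR but called in DESeq2 (0.0272 and 0.00957). Without the Gai replicate 1 libraries 4 of 9 ligands were called in each of these comparisons (0.971% and 2.48% of all genes): Vegfd passed (0.78 ± 0.17, adjusted p = 0.019, and -0.83 ± 0.15, 0.00299), and Pdgfd had adjusted p = 0.0108 and 0.00278, Pgf 1.97e-05 and 4.43e-06, and Vegfa 0.00109 and 9.66e-06.

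In Gaq with Cre, at rest and with TRAP-6 (2.65% and 3.41% of all genes called), 2 and 2 of the 12 activators were higher and 1 and 1 lower. Of the 8 binders 0 and 1 were higher and 2 and 2 lower, of the 8 hypoxia regulators 0 and 1 were higher, and of the 16 hypoxia targets 0 and 2. The genes named next, other than receptors, were chosen after their values were seen. The extracellular binder Thbs1 was lower in both states, at a log2 change of -0.25 ± 0.03 in each, and so was Sema3a, a semaphorin that binds neuropilins, at -0.28 ± 0.08 at rest and -0.38 ± 0.08 with TRAP-6. Adamts2, a procollagen protease, was higher in both states (0.19 ± 0.04 and 0.30 ± 0.04), and Plau was lower at rest (-0.38 ± 0.09). Of the receptors Pdgfra (0.17 ± 0.05) and Pdgfrl (0.53 ± 0.14) were higher with TRAP-6, 2 of 8, and 0 of 8 were called at rest. In Ga13, where 0.0379% of all genes were called, Nrp1 was higher with Cre and TRAP-6 (0.24 ± 0.04, edgeR adjusted p = 0.00535). In Gas astrocytes Pdgfra was higher with Cre at rest (0.39 ± 0.05, edgeR adjusted p = 0.000445) and with isoproterenol (0.30 ± 0.05, 0.0447). It was the 1 receptor of 8 called there, beside 0.00552% of all genes at rest and 0.0166% with isoproterenol. The summed oligodendrocyte lineage markers were also higher there with Cre, at 1005 to 1095 CPM against 900.4 to 973 CPM with empty virus. Pdgfra is itself among those markers and among the fibroblast markers, and the part of either cell type was not tested.

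The genes whose pattern was most like that of a ligand were sought over the 16 group means, each centred on its line, among 14611 genes tested in all 4 lines. Pearson's r is given as a description, since the means share libraries, cells and treatments. The largest changes of Vegfa and Pdgfb were those with isoproterenol in Gas, where 23.3% of all genes were called. Their r values therefore weigh that comparison most. For Vegfa the nearest were Tent4a and Rgs16 (both 0.968) and Tmem41b (0.963), and for Pdgfb Nhsl3 (0.968), Map2k3 (0.966) and Fam117a (0.962). For Vegfd they were Sfrp1 (0.964), Scp2 (0.954) and C4b (0.941), for Pgf Gramd1b (0.922), Cflar (0.915) and Tns3 (0.895), and for Pdgfd Gria3 (0.978), Nrbp2 (0.958) and Ccn3 (0.957). Pdgfc was nearest to Erlin1 (0.948), Vegfb to Myo7a (0.919) and Vegfc to Tmem256 (0.861).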

How the data were processed

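The authors deposited 4 tables of raw read counts per gene, 1 for each line. According to the submitters' processing notes, fastp, Subread, featureCounts and GRCm39 were used; versions, annotation and strand setting are not given in the sources used here. Each line was fitted in R 4.3.3 with edgeR 4.0.16 (filterByExpr, TMM, robust quasi-likelihood test, two-sided) with 1 mean per group, on 18103 (Gas), 15980 (Gai), 15528 (Gaq) and 15835 (Ga13) genes. P-values were adjusted over all genes of a contrast and called under 0.05. The 36 fibroblast libraries were also fitted jointly. DESeq2 1.42.0 was an alternative. CPM uses library totals; merged exon lengths are of GENCODE vM21. The edgeR script was checked on simulated counts, where it recovered 84% to 86% of genes changed 2-fold and 58% to 75% of those changed 1.4-fold; 4.52% (Gas), 4.73% (Gai), 8.62% (Gaq) and 6.49% (Ga13) of its calls were of unchanged genes.

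All members were named, with up to 4 called genes of each list, all receptors and the genes most alike (those for Pdgfa are not reported here). Members and lists were chosen with earlier results of these data known. Replicates of a group differed beyond counting noise (chi-square per degree of freedom 2.62 to 19.3 over 48 pairs), so none was a repeat sequencing of another library. Whether they came from separate animals or cultures is not shown by this.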

Additional observations from a re-analysis of the deposited data

Results flagged for a closer look

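Tests of the difference in the Cre effect between fibroblast lines brought up 3 ligands. The Cre effect on Vegfa was 0.27 lower on the log2 scale in Gaq than in Gai (Gaq minus Gai, -0.27) and 0.26 higher in Ga13 than in Gaq. For Pgf the differences were -0.62 (Gaq minus Gai) and 0.63 (Ga13 minus Gaq), and for Pdgfd 0.39 and -0.41. Both comparisons use the Gaq libraries. Causes were not tested.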

How the results depend on the processing

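Over 306 member contrasts, 47 were called in the reported fit or an alternative, and 0 reversed. Without a low-count filter 1 ligand was called for the Cre mean in Gai (Pdgfb) and 1 for the difference of responses in Gaq (Vegfd). With library totals 1 was called in the Ga13 response with empty virus (Vegfa). Without the Gai replicate 1 libraries 2 ligands were called in the Gai mean response and 1 with empty virus (Vegfa). Deviations of same-numbered replicates correlated weakly (median 0.0311 in Gas, 0.0982 in Gai, 0.0486 in Gaq, 0.0469 in Ga13) and exceeded 0.1 in 1, 8, 0 and 0 of 18 pairs. Those of other numbers had negative medians (-0.0157, -0.149, -0.0215 and -0.0193), and 11, 5, 9 and 11 of 12 libraries correlated best with their own number. The reported fits do not take the numbers as pairs, but these values do not show that the libraries are unpaired. A replicate block raised calls over all genes (Gai mean response, from 1.12% to 4.99%). With it 1 ligand was called in the Ga13 response with empty virus (Vegfa; 5.78% of all genes), 2 in the Ga13 mean response (Vegfa and Pgf; 11.4%), 1 in the Gaq response with Cre (Pdgfb; 4.79%), 5 in the Gas mean response (Pdgfc added; 24.4%), and 5 for line differences in the Cre effect (Vegfd and Pdgfb added; 2.86% for Gaq minus Gai). Leaving out 1 library gave 0 to 2 calls in the Ga13 mean response, 0 to 1 in the Ga13 response with Cre, 0 to 1 in the Gai mean response, 0 to 1 in the Gaq response with Cre, 2 to 4 for Cre in resting Gaq and 0 to 1 for the Gaq response difference. It gave 4 to 5 in the Gas mean response, 2 to 3 with empty virus and 3 to 4 with Cre, and 2 to 4 for line differences. In the other contrasts the count did not move. Few reads limit Vegfd and Pgf in astrocytes and Pdgfb in fibroblasts; Vegfd in Gai has an error as wide (0.20) on 2270 to 5338 reads.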
